A study of Mus musculus with 2 samples.

Results

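Proliferating CD8 T cells of the pancreatic islet were chosen by their raw UMIs (unique molecular identifiers, each counting 1 captured transcript) for 5 genes of dividing cells, Mki67, Top2a, Birc5, Ube2c and Cdk1. A cell with at least 2 UMIs of Cd8a and Cd8b1 together and none of Cd4 or Foxp3 was taken as a CD8 T cell, and a CD8 T cell with at least 3 UMIs over those 5 gate genes as proliferating. By this gate 279 of 2091 CD8 T cells were proliferating, among 5629 cells that passed the filters of 200 to 5000 genes and at most 20% mitochondrial UMIs. Of these, 182 came from wild-type NOD.Foxp3-EGFP mice and 97 from NOD.Tnfrsf9-/-.Foxp3-EGFP mice, the CD137 knockout. Both strains are non-obese diabetic (NOD) mice with a green fluorescent reporter in the Foxp3 gene, and the knockout lacks CD137 (4-1BB, encoded by Tnfrsf9) in every cell, not in regulatory T cells alone. Islet cells of 6 females aged 9 to 10 wk were pooled for each strain, CD8 T cells and GFP+ regulatory T cells (Tregs) were sorted by surface markers, and both went into 1 droplet library of 3′ tags for each strain. With 1 library for a genotype there was no replicate and no test, so a difference between wild type and knockout is a difference between 2 pools of mice.

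Intervals are exact 95% intervals that cover counting error only. UMIs of 1 cell are not independent, so the intervals of levels and ratios are narrower than the spread between cells. Levels are in CPM, the UMIs of a gene in every 1000000 UMIs of the class of cells. Both libraries were of similar depth, with 19904506 UMIs in 2804 barcodes for wild type and 19639995 UMIs in 2991 barcodes for the knockout. The libraries shared 16 barcode sequences, 2 of them on proliferating cells of each library.

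A T cell that meets its antigen leaves quiescence, replicates its DNA in S phase and divides in mitosis. CD137 is a costimulatory receptor of the tumor necrosis factor receptor family that activated CD8 T cells put on their surface. In the islets of NOD mice, CD8 T cells take part in the destruction of the insulin-producing β cells, and dividing cells among them may be close to the naïve state, progenitor-like with Tcf7, or effector-like with Tox, inhibitory receptors and granzymes.

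Genes of the cell cycle are known to be switched on in 2 waves, the first through E2F sites before S phase and the second through CCAAT boxes and cell cycle homology regions (CHR) before mitosis. A promoter of the S phase list and a promoter of the G2/M list are shown because the genes of these lists went together in the proliferating cells. Both are RefSeq windows on GRCm38.p6, from 250 bases before to 50 after the transcription start, on the plus strand and 5′ to 3′, with capitals on the CCAAT box and the CHR. Rrm2, the ribonucleotide reductase subunit that supplies deoxynucleotides, had the highest ratio of proliferating to non-proliferating cells in the S phase list (chr12:24708004-24708303). Plk1, a mitotic kinase, was the highest among G2/M genes that the promoter table holds (chr7:122159185-122159484). Ccna2, cyclin A2, was higher still.
Rrm2 promoter: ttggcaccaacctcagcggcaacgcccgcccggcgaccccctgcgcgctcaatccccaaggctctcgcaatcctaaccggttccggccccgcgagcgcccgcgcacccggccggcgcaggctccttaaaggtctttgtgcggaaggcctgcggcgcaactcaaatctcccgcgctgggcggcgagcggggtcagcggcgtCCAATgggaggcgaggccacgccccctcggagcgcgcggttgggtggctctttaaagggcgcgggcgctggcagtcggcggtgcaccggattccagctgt
Plk1 promoter: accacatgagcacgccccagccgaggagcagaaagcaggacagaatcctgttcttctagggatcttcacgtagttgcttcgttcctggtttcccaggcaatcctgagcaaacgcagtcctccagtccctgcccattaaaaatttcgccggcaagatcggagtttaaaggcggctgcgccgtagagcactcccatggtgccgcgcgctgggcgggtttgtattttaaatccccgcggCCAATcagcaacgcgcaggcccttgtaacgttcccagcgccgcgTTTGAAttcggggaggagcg

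The CCAAT box of Rrm2 began 50 bases before the start and that of Plk1 14 bases before it, and the CHR of Plk1 began at base 31 after the start. On either strand, CCAAT was found in 58.6% of 29 S phase promoters and 83.3% of 30 promoters of the G2/M list and the gate genes, against 37.4% of all 32851 promoters. A CHR, read as TTTGAA, as the variant CTTGAA or as the variant TTCGAA, was found in 27.6% of the S phase promoters and 80.0% of the G2/M promoters, against 29.3% of all. An E2F word, read as TTTCCCGC, as the variant TTTGGCGC, as the variant TTTCGCGC or as the variant TTTGCCGC, was found in 31.0% and 6.67%, against 2.26% of all. The Rrm2 promoter shown held none of these E2F words on either strand, and its marked box is a CCAAT box. All of these are matches of letters and were not tested as binding sites.

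Markers that the gate did not count went with the label of proliferating cells. Stmn1, a microtubule regulator of dividing cells, was at 966 CPM in wild-type and 968 CPM in knockout proliferating cells, against 32.8 and 16.2 CPM in CD8 T cells with no UMI of the gate genes, here called gate-zero cells (542 wild-type and 894 knockout). Rrm2 was at 325 and 357 CPM, against 6.25 and 3.81 CPM in gate-zero cells. Stmn1 UMIs lay in 167 of 182 wild-type cells and in 88 of 97 of the knockout. All 34 S phase genes were at least 2-fold higher in proliferating than gate-zero cells in both libraries, with a median log2 ratio of 2.93 in wild type and 3.02 in the knockout. All 30 G2/M genes in wild type and 29 of 30 in the knockout were at least 2-fold higher, with medians of 5.25 and 5.56. Smc4, a condensin subunit, was the exception, at a log2 ratio of 0.80 in the knockout. Over all genes tested (at least 100 UMIs over the CD8 T cells of both libraries, gate genes left out), 8.21% of 8586 were at least 2-fold higher and 9.32% at least 2-fold lower in wild-type proliferating cells. In the knockout 9.7% were at least 2-fold higher and 9.26% at least 2-fold lower. Cell cycle genes accompany the gate genes by the choice of the cells, so these values describe the gate and are no finding.

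At the edge of the gate the cells were shallow and less rich in these markers. Stmn1 was at 275 CPM in the 22 wild-type cells with a gate sum of exactly 3, and at 186 CPM in the 36 cells with a sum of 2, just outside. In the knockout it was at 298 CPM in the 14 cells with a sum of 3 and at 81.1 CPM in the 35 cells with a sum of 2. Rrm2 was at 36.3 against 14.0 CPM in wild type and 21.8 against 6.76 CPM in the knockout. Median UMIs of the cells with a sum of 3 were 9480 in wild type and 8801 in the knockout. The median gate sum over all proliferating cells was 15.5 and 18.

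Proliferating cells held more RNA than gate-zero cells. Their median was 13940 UMIs and 3617 genes in wild type and 14100 UMIs and 3695 genes in the knockout, so the 2 genotypes could be compared within the gate at like depth. Gate-zero cells had a median of 5493.5 and 5088 UMIs, and a sum over 5 genes reaches 3 more readily in a deep cell. The 5000-gene limit cut into the class as well. Of 26 wild-type CD8 T cells above it 25 met the gate, as did all 28 in the knockout, and these 53 cells are not among the 279.

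A smaller share of knockout than of wild-type CD8 T cells was proliferating. The share was 20.4% in wild type (interval 17.8 to 23.2) and 8.08% in the knockout (6.60 to 9.77), a difference of -12.3 percentage points (Newcombe interval -15.5 to -9.32). The gap was found at low and high gate sums alike. Cells with a sum of 3 to 9 were 6.85% of wild-type and 2.67% of knockout CD8 T cells, and cells with 10 or more were 13.6% and 5.42%. Cells with a sum of 1 to 2 made up 18.7% and 17.4%, a difference of -1.33 points (-4.71 to 1.98). The Tregs of the same libraries gave another picture. A cell with any UMI of Cd4 or Foxp3 and none of Cd8a or Cd8b1 was taken as a Treg. By the same gate 135 of 1020 wild-type Tregs (13.2%) and 142 of 950 knockout Tregs (14.9%) were proliferating, a difference of 1.71 points (-1.36 to 4.81).

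**Figure D1:**
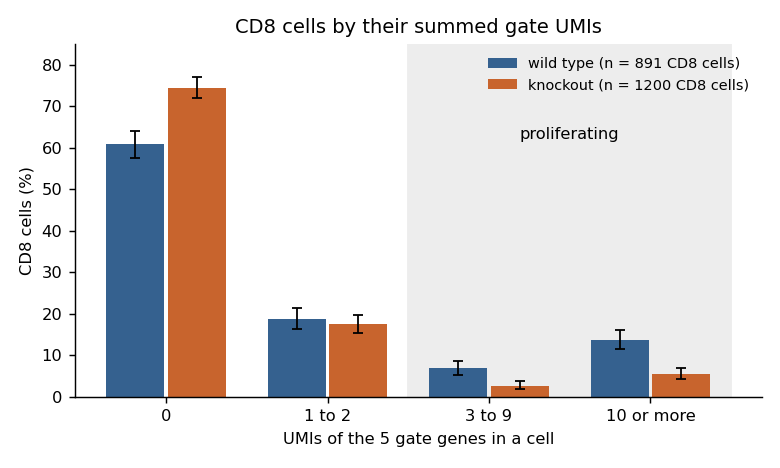
Share of CD8 T cells (%) by the sum of UMIs over the 5 gate genes, in the wild-type and the knockout library. Bars are shares of all CD8 T cells of a library, error bars are exact 95% binomial intervals that cover counting error only, and shading marks the proliferating cells. The knockout bars are lower at 3 to 9 (2.67 against 6.85%) and at 10 or more (5.42 against 13.6%), and about level at 1 to 2.

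Depth and the mix of CD8 T cells moved these shares. With every cell thinned to 3000 UMIs (39 wild-type and 35 knockout CD8 T cells were shallower and left out), 12.7% and 5.32% met the gate, a difference of -7.35 points. Among CD8 T cells with no UMI of 3 genes of naïve cells, Lef1 and Ccr7 among them, 25.2% of 473 wild-type and 15.9% of 358 knockout cells were proliferating, a difference of -9.24 points (-14.6 to -3.68). The knockout stayed lower in both, with a smaller gap in percentage points. Thinning lowered the shares of both libraries, from 20.4% in wild type and 8.08% in the knockout, so fewer points there do not mean a smaller relative gap.

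Proliferating cells carried far less of the naïve and quiescence program than gate-zero cells, alike in both libraries. Of its 15 genes, 13 were at least 2-fold lower in wild type and 12 in the knockout, none was at least 2-fold higher, and the medians were -2.13 and -2.06, against -0.03 and 0.01 over all genes tested. Lef1, a transcription factor of naïve and memory T cells, was at 51.4 CPM in proliferating and 376 CPM in gate-zero wild-type cells, and at 90.4 and 746 CPM in the knockout. The corresponding log2 ratios were -2.87 (-3.14 to -2.62) and -3.05 (-3.31 to -2.79). Il7r, the survival receptor for IL-7, was at 9.44 against 104 CPM and 16.2 against 172 CPM. Ets1 was close to level in both, at log2 ratios of -0.21 and -0.30. Tcf7, which keeps progenitor-like cells, was 44.6 against 145 CPM in wild type (log2 ratio -1.70, -2.0 to -1.41) and 90.4 against 169 CPM in the knockout (-0.90, -1.18 to -0.63).

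The lowest ratios outside the cell cycle lists in wild type were of the same kind. Dapl1, a gene of naïve and memory-like CD8 T cells, was at 5.29 CPM in proliferating and 193 CPM in gate-zero wild-type cells. Auts2 had no UMI in wild-type proliferating cells against 112 in gate-zero cells, a log2 ratio of -4.95 or lower when set against a floor of 3 counts over the class. Rapgef4 had 1 UMI in them against 112 in gate-zero cells, a log2 ratio of -6.53 (-11.9 to -4.03). Among the highest were genes that also belong to the cell cycle, such as 2810417H13Rik (843 against 4.69 CPM), which encodes a PCNA-associated factor, the cohesin acetyltransferase Esco2 and the kinetochore gene Nuf2.

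The naïve program thinned out along the gate sum. Lef1 went from 376 CPM at a sum of 0 to 143 at 1 to 2, 71.0 at 3 to 9 and 44.2 at 10 or more in wild type, and from 746 to 364, 91.4 and 90.0 CPM in the knockout. Bach2, a repressor of effector differentiation, went from 238 to 171, 75.3 and 23.1 CPM in wild type and from 463 to 278, 83.6 and 70.6 CPM in the knockout. Genes of the Tox effector list were mostly highest between these ends. In wild type 13 of 13 had their highest level at a sum of 1 to 2 or 3 to 9, as did 12 of 13 in the knockout. Pdcd1, the inhibitory receptor PD-1, was at 261, 367, 280 and 232 CPM over the same 4 bins in wild type and at 94.2, 207, 350 and 212 CPM in the knockout. Xcl1, a chemokine that attracts cross-presenting dendritic cells, was at 649, 1212, 1242 and 241 CPM in wild type and at 351, 946, 1581 and 654 CPM in the knockout. The exception in the Tox effector list was Gzmb in the knockout, at 85.8, 258, 337 and 343 CPM. Other effector genes, chosen after their values were seen, were highest in the cells richest in gate genes, as Eomes in wild type (65.6, 104.6, 128 and 143 CPM) and Gzmk (23.7, 69.8, 67.9 and 122 CPM) and Gzma (27.7, 141, 266.5 and 617 CPM) in the knockout. Of the Gzma UMIs in knockout proliferating cells 64.2% lay in 2 cells, so its top value leans on few cells. The other library showed less of a rise. At 3 to 9 and at 10 or more, wild-type Gzmk was at 275 and 273 CPM and wild-type Gzma at 79.5 and 84.4 CPM. Knockout Eomes was at 24.7, 49.8, 15.7 and 51.3 CPM over the 4 bins.

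The Tox effector list, which holds Tox, inhibitory receptors, killer lectin receptors and effector molecules, differed between the libraries in this comparison. In wild type 0 of 13 genes were at least 2-fold higher or lower in proliferating than in gate-zero cells, and the median was 0.13. In the knockout 6 of 13 were at least 2-fold higher, all 13 were above 0, and the median was 0.73. Pdcd1 was at 245 CPM in proliferating and 261 CPM in gate-zero wild-type cells (log2 ratio -0.09, -0.24 to 0.06), and at 249 against 94.2 CPM in the knockout (1.40, 1.20 to 1.61). Havcr2, the inhibitory receptor TIM-3, was at 53.2 against 37.2 CPM and 62.8 against 14.6 CPM, with ratios of 0.52 (0.16 to 0.88) and 2.10 (1.64 to 2.57). Gzmb, granzyme B, was at 197 against 98.8 CPM and 342 against 85.8 CPM. For Pdcd1 and Havcr2 the proliferating cells of both libraries were near level, and the gate-zero cells were lower in the knockout.

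**Figure D2:**
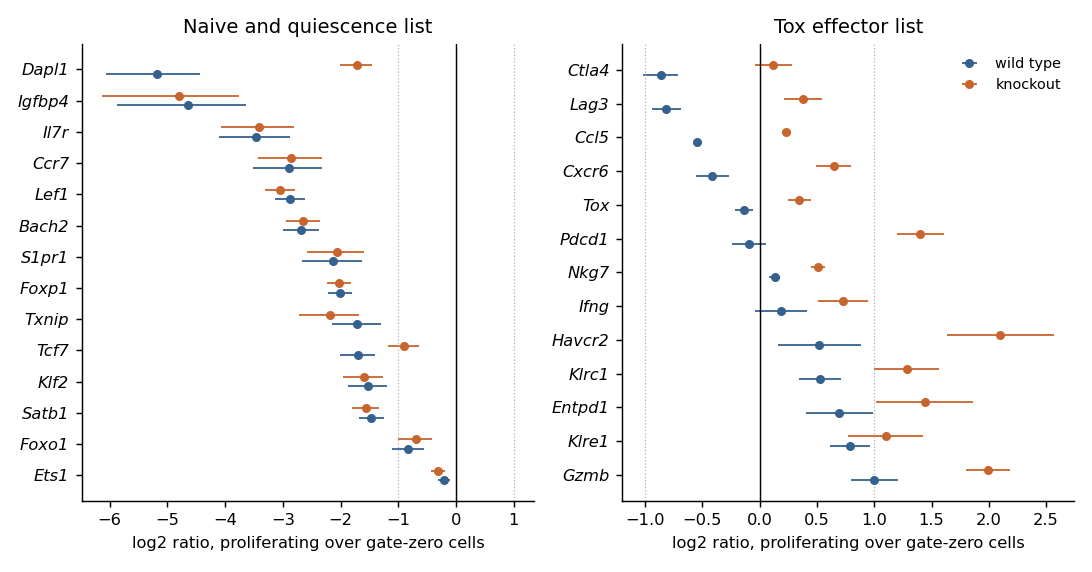
Log2 ratio of the level in proliferating over gate-zero CD8 T cells for 14 of the 15 naïve and quiescence genes (left) and 13 Tox effector genes (right), in wild type and knockout. Points are ratios of summed UMIs, bars are exact 95% intervals for counting error, and dotted lines mark 2-fold. Naïve genes lie below 0 in both libraries (medians -2.13 and -2.06 over all 15), and Tox effector genes lie on both sides of 0 in wild type (median 0.13) and above it in the knockout (median 0.73).

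The gap between the libraries depended on which gate-zero cells were used. Gate-zero cells with no UMI of the same 3 naïve genes numbered 252 of 542 in wild type and 207 of 894 in the knockout. Against them the Tox effector median was -0.57 in wild type and -0.53 in the knockout, below 0 in both, and the median of the naïve list without those 3 genes was -0.99 and -0.46. Pdcd1 in the knockout then had a ratio of -0.30 in place of 1.40. Few gate-zero cells were as deep as the proliferating ones (23 and 37 cells at or above the lower quartile of the gated cells), and against those the naïve medians were -1.17 and -1.13.

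Other lists separated proliferating from gate-zero cells in both libraries. The glycolysis list had a median of 0.67 in wild type and 0.55 in the knockout, with 3 and 5 of 15 genes at least 2-fold higher. Gapdh was at 2047 against 839 CPM in wild type and 1753 against 533 CPM in the knockout, and Tpi1, triosephosphate isomerase, was at 168 against 50.3 and 169 against 37.7 CPM. Slc2a1, a glucose transporter, was at 7.17 against 7.19 CPM in wild type and 4.24 against 9.83 CPM in the knockout. Genes of nucleotide and one-carbon synthesis had medians of 0.91 and 0.68, with 5 of 14 at least 2-fold higher in each. Mthfd2, a mitochondrial folate enzyme of activated T cells, was at 94.4 against 45 CPM and 95.3 against 44.7 CPM.

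Interferon response genes were lower in proliferating cells, with 6 of 7 measured genes at least 2-fold lower in wild type and 5 of 7 in the knockout (medians -1.76 and -1.37). Bcl2, the survival gene, was at 62.3 against 204 CPM in wild type and 69.9 against 269 CPM in the knockout. Cytokine receptors differed more between the libraries, with 6 of 11 measured genes at least 2-fold lower in wild type (median -1.02) and 2 of 11 in the knockout (median -0.07).

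Among cell cycle regulators, the D cyclins that act early after activation were lower and inhibitors of the Ink4 family were higher in proliferating cells. Ccnd2 was at 111 against 255 CPM in wild type and 126 against 362 CPM in the knockout, and Ccnd3 at 219 against 536 and 262 against 606 CPM. Cdkn2c (p18) was at 82.7 against 8.75 CPM and 57.2 against 5.41 CPM, and Cdkn2a was at 21.1 against 2.81 and 41.7 against 3.21 CPM. The antiproliferative gene Btg1 was at 619 against 1445 CPM and 761 against 1689 CPM. Of the 18 genes of this list that were measured, 6 were at least 2-fold higher and 4 lower in wild type, and 7 higher and 5 lower in the knockout.

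Within the gate, the targeted gene was read first. Tnfrsf9 (chr4:150914562-150946102, GRCm38, plus strand) had 293 UMIs in 93 of 182 wild-type proliferating cells, or 111 CPM (98.3 to 124), and 69 UMIs in 30 of 97 knockout cells, or 48.7 CPM (37.9 to 61.6). The log2 ratio of knockout to wild type was -1.18 (-1.58 to -0.80) in proliferating and -2.21 (-2.55 to -1.87) in gate-zero cells. The transcript was lower but present in the knockout. Reads of the 3′ end can lie outside the deleted part of a gene, so they check neither the deletion nor the protein.

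Over all genes, 3.67% of 8572 were at least 2-fold higher and 1.88% at least 2-fold lower in knockout than in wild-type proliferating cells, with a median log2 ratio of 0.05. These were 315 and 161 genes, of which 66.2% were higher, but with the 2 highest cells of each gene left out 269 were higher and 286 lower, or 48.5% higher, so the excess of higher genes was not kept. In gate-zero cells the shares were 1.89% and 1.38% of 8564. The gated classes hold fewer UMIs than the gate-zero classes, so their ratios carry more counting error. Cell cycle genes were near level between the genotypes in the gate, with 0 of 34 S phase genes and 0 of 30 G2/M genes at least 2-fold apart and medians of 0.01 and -0.19.

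Among the genes lowest in knockout against wild-type proliferating cells were Eomes, Gzmk and Klre1, 3 genes of effector and memory CD8 T cells. Eomes (chr9:118478212-118486132, plus strand), a T-box factor of effector and memory CD8 T cells, had 368 UMIs (139 CPM) in wild type and 59 UMIs (41.6 CPM) in the knockout, a log2 ratio of -1.74 (-2.16 to -1.34). Eomes UMIs lay in 74.2% of the wild-type cells of the gate (67.2 to 80.4), against 27.8% of the knockout cells (19.2 to 37.9). Gzmk, granzyme K (chr13:113171608-113225908, minus strand), was at 274 and 107 CPM (-1.35, -1.61 to -1.10) and was found in 79.1% (72.5 to 84.8) and 41.2% (31.3 to 51.7). Klre1, a killer lectin receptor, was at 244 and 90.4 CPM (-1.43, -1.72 to -1.15), in 68.1% and 34.0% of cells. The ratios did not rest on the highest cells. With the 2 highest cells of each gene left out in each library the ratios were -1.93, -1.54 and -1.60.

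Free RNA could give such UMIs in any cell, so gate-zero Tregs of the same libraries (median 4210.5 UMIs in wild type and 4177.5 in the knockout) served as background. Eomes was found in 2.18% and 1.58% of them, Gzmk in 6.69% and 3.47%, and Klre1 in 1.16% and 0.473%. After thinning to 3000 UMIs, Eomes was left in 29.6% of the wild-type cells against 7.22% of the knockout cells, Gzmk in 49.7% and 21.6%, and Klre1 in 39.1% and 15.5%. The 3 genes were among the lowest ratios of these same cells, so these shares describe them and add no support.

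The 3 genes were lower in knockout gate-zero cells as well, at log2 ratios of -1.41 for Eomes, -2.14 for Gzmk and -1.75 for Klre1. The related Klrc1 (NKG2A) was at 203 and 123 CPM in proliferating cells, and Klrk1 (NKG2D) at 160 and 83.3 CPM. In gate-zero cells Klrc1 was at 141 and 50.5 CPM and Klrk1 at 157 and 56.7 CPM. Klrg1, a receptor of short-lived effector cells, had 38 UMIs in 19 wild-type cells and 3 UMIs in 2 knockout cells, a log2 ratio of -2.76 (-5.10 to -1.10). Ccl5, the most abundant of these genes, was at 7183 and 4235 CPM in proliferating cells and at 10491 and 3605 CPM in gate-zero cells. Arsb (-1.50), Ppp2r2c (-1.83), Ctla2b (-1.45), Pif1 (-1.37) and the unannotated transcript A930011G23Rik (-3.21) were also among the 10 lowest. Its UMIs lay in 43.4% of the wild-type cells against 5.15% of the knockout cells. Arsb (-1.41), Ppp2r2c (-1.81), Ctla2b (-1.73) and A930011G23Rik (-1.50) were lower in knockout gate-zero cells as well. Pif1 had 2 UMIs in wild-type and 3 in knockout gate-zero cells.

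Itgae, Rel and histone genes were among the 10 highest. Itgae (chr11:73090583-73147446, plus strand), the αE integrin CD103 that holds T cells at E-cadherin, was at 41.2 CPM in wild type and 131 CPM in the knockout (log2 ratio 1.67, 1.33 to 2.03). Its UMIs lay in 19.8% of the wild-type cells of the gate (14.3 to 26.3), against 50.5% of the knockout cells (40.2 to 60.8), and after thinning in 7.26% and 29.9%. Gate-zero Tregs, a cell type that uses Itgae itself, held it in 40.8% and 31.2% of cells, so they give no background for this gene, and free Itgae RNA was not measured apart. In gate-zero CD8 T cells it was about level, at 121 and 130 CPM. Rel, the NF-kB subunit c-Rel, was at 44.9 and 144 CPM in proliferating cells (1.68, 1.35 to 2.02) and was higher in knockout gate-zero cells as well (1.27). Samd9l (1.92) and the linker histone gene Hist1h1e (2.20) were likewise higher in both classes, with gate-zero ratios of 1.52 and 1.61. Hist1h1b, which is made in S phase, was at 58.9 and 272 CPM in proliferating cells.

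The counts of cells with Eomes and Itgae differed between the genotypes. In wild type 117 of 182 proliferating cells held UMIs of Eomes alone, 18 of Itgae alone and 18 of both. In the knockout 17 of 97 held Eomes alone, 39 Itgae alone and 10 both. Itgae cells thus held Eomes as well in 18 of 36 cases in wild type and 10 of 49 in the knockout. Among all proliferating cells Eomes was found in 135 of 182 (74.2%) in wild type and 27 of 97 (27.8%) in the knockout. In each library the share with Eomes was thus lower among Itgae cells than among all proliferating cells. Whether the genotypes differed in this pairing beyond their Eomes shares was not tested.

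**Figure D3:**
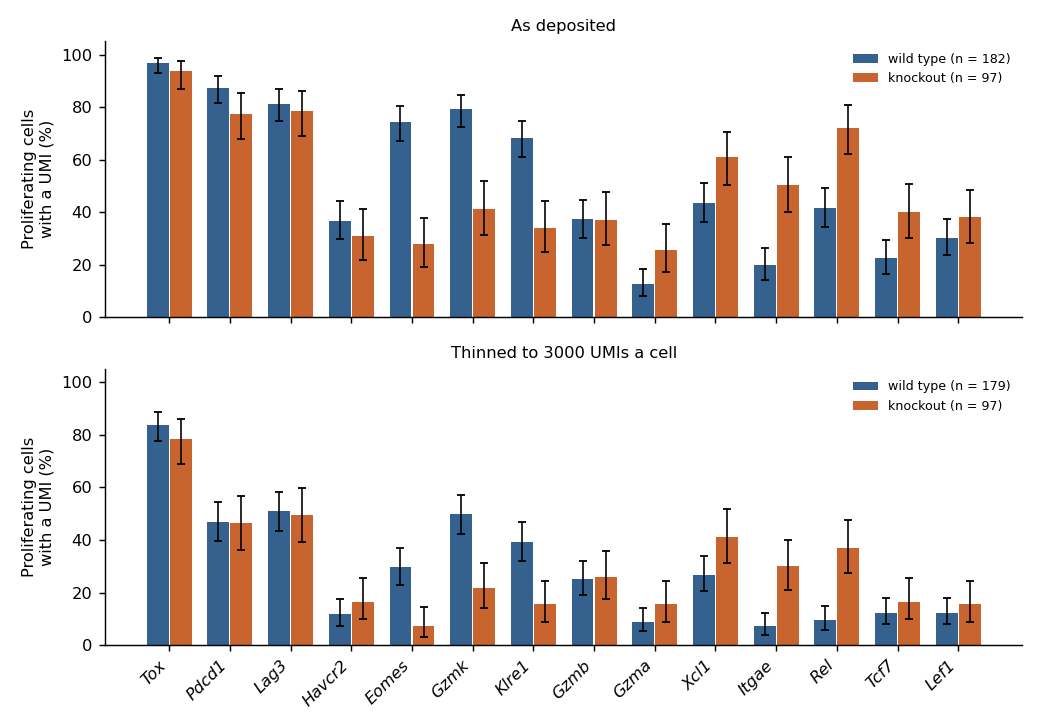
Share of proliferating CD8 T cells (%) with at least 1 UMI of each of 14 genes in wild type and knockout, as deposited (top) and after each cell was thinned to 3000 UMIs (bottom). Bars are shares, and error bars are exact 95% binomial intervals for counting error. Eomes (74.2 against 27.8%) and Gzmk (79.1 against 41.2%) are lower and Itgae (19.8 against 50.5%) and Rel (41.8 against 72.2%) higher in the knockout, while Lag3 and Gzmb are about level.

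Members of the Tox effector list lay on both sides of level between the genotypes inside the gate. Of the 13 Tox effector genes 1 (Klre1) was at least 2-fold lower in the knockout and none at least 2-fold higher, 7 were above 0 and 6 below, and the median was 0.03. Pdcd1 was at 245 CPM in wild type and 249 CPM in the knockout (log2 ratio 0.03, -0.16 to 0.22), Lag3 at 276 and 294 CPM (0.09, -0.09 to 0.26), and Tox at 851 and 758 CPM (-0.17, -0.27 to -0.06). Higher in the knockout were the inhibitory receptor Ctla4 at 185 and 300.01 CPM (0.69, 0.50 to 0.88), the cytokine Ifng at 119 and 178 CPM (0.58, 0.34 to 0.82) and the chemokine receptor Cxcr6 at 246 and 344 CPM (0.48, 0.31 to 0.66). Lower were Ccl5 (-0.76, -0.80 to -0.72), Klrc1 (-0.72, -0.98 to -0.47), the ectonucleotidase Entpd1 at 87.6 and 59.3 CPM (-0.56, -0.94 to -0.20) and Nkg7, a granule protein, at 2714 and 2147 CPM (-0.34, -0.40 to -0.28). Pdcd1 and Tox shared 85.7% of the wild-type cells, against 75.3% in the knockout. Gzmb was at 197 and 342 CPM, found in 37.4% and 37.1% of cells, and 37.8% of its knockout UMIs lay in 2 cells. In gate-zero cells the same list was lower in the knockout, with 7 of 13 genes at least 2-fold lower and a median of -1.11. Among gate-zero cells with no UMI of the 3 naïve genes that median was -0.35.

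The naïve list was higher in the knockout inside the gate as well as outside it. In knockout proliferating cells 5 of 15 genes, with Dapl1, Tcf7, Bach2 and Ccr7 among them, were at least 2-fold higher, 14 were above 0, and the median was 0.78. In gate-zero cells 1 of 15 was at least 2-fold higher, 15 were above 0, and the median was 0.71. Tcf7 was at 44.6 CPM in wild-type and 90.4 CPM in knockout proliferating cells (log2 ratio 1.02, 0.65 to 1.39), found in 22.5% and 40.2% of cells, and after thinning in 12.3% (7.87 to 18.0) and 16.5% (9.73 to 25.4), a difference that was not detectable at that depth. In the progenitor and memory list, 1 of 11 genes (Id3) was at least 2-fold higher and 2 (Eomes and Gzmk) lower, with a median of 0.25. Tcf7 and Havcr2 shared few cells, 4 of 182 in wild type and 4 of 97 in the knockout, beside 37 and 35 cells with Tcf7 alone and 63 and 26 with Havcr2 alone. Dapl1 (chr2:59484653-59505020, plus strand) had the highest ratio among genes with at least 100 UMIs over the proliferating cells of both libraries, at 14 UMIs in 5 wild-type cells and 119 UMIs in 14 knockout cells (log2 ratio 3.99, 3.19 to 4.90), and 47.1% of the knockout UMIs lay in 2 cells.

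**Figure D4:**
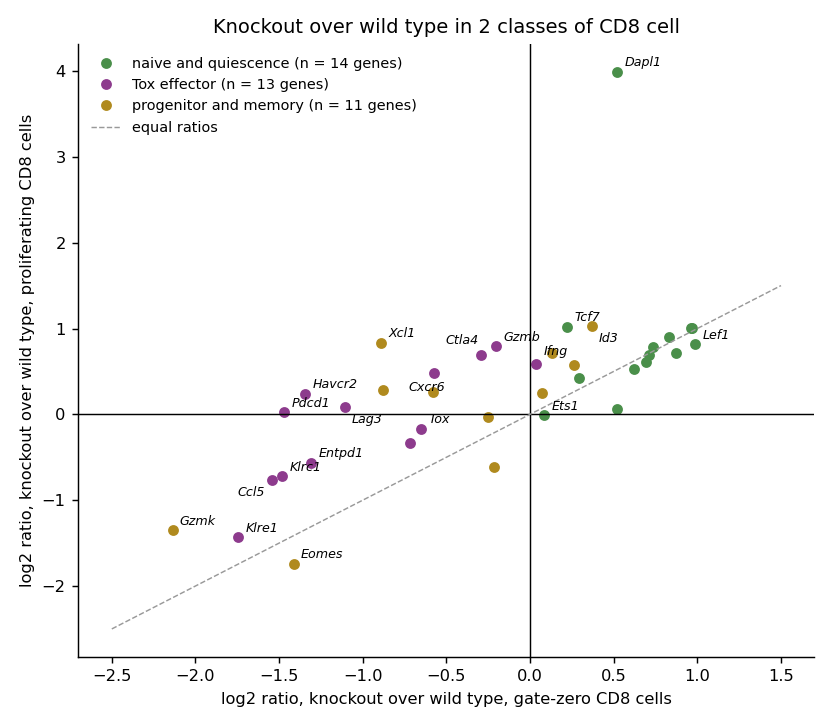
Log2 ratio of knockout over wild type in proliferating CD8 T cells (vertical) against the same ratio in gate-zero CD8 T cells (horizontal), 1 point a gene, for 3 lists (14 of the 15 naïve genes are drawn). The classes hold different cells of the same 2 libraries, and the dashed line marks equal ratios. Naïve genes lie right of 0 and mostly above it (medians 0.71 and 0.78), and 12 of 13 Tox effector genes lie left of 0 but on both sides of 0 on the vertical axis (medians -1.11 and 0.03).

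Genes of recent T cell receptor activation leaned higher in knockout proliferating cells, with 4 of 14 measured genes at least 2-fold higher, none lower and a median of 0.52. These 4 were Rel, Nrn1, Irf4 and Cd69. Irf4, which T cell receptor signals induce, was at 20.01 and 45.9 CPM (1.20, 0.65 to 1.75), and Cd69, an early activation and retention receptor, was at 94.4 and 206 CPM (1.13, 0.88 to 1.38). Egr1 and Nr4a1, immediate targets of the same signal, were at 16.6 and 24.0 CPM and at 35.5 and 39.5 CPM. Nrn1 was at 18.1 and 62.8 CPM, a ratio of 1.79 that was 1.11 with the 2 highest cells left out.

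Of 9 measured genes of the cytotoxic granule and chemokine list, 2 (Gzma and Prf1) were at least 2-fold higher in knockout proliferating cells and none lower, with a median of 0.36. Gzma (chr13:113093825-113100981, minus strand), granzyme A, had 220 UMIs in 23 wild-type cells and 740 UMIs in 25 knockout cells, a log2 ratio of 2.65 (2.43 to 2.88), but 64.2% of the knockout UMIs lay in 2 cells and the ratio was 2.03 without the 2 highest cells of each library. It was found in 12.6% (8.18 to 18.4) and 25.8% (17.4 to 35.7) of proliferating cells. These intervals overlap, which does not decide whether the shares differ. Prf1, perforin, was at 4.53 and 12 CPM, from 12 and 17 UMIs. Xcl1 was at 507 and 904 CPM (0.83, 0.72 to 0.94) in proliferating cells, but at 649 and 351 CPM in gate-zero cells. Ccl3 and Ccl4, chemokines of activated CD8 T cells, were at 443 and 642 CPM and at 1146 and 1588 CPM. Tbx21 (T-bet), the companion of Eomes, was at 51.0 and 82.6 CPM (0.70, 0.33 to 1.06), a direction opposite to that of Eomes.

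Of 9 survival and death genes measured, 2 were at least 2-fold higher in knockout proliferating cells and none lower. Bcl2l11 (Bim), which promotes cell death, was at 17.7 and 37.4 CPM (1.08, 0.48 to 1.67). Of 8 TNF family genes measured, 2 (Tnf and Tnfsf8) were at least 2-fold higher and 1, Tnfrsf9 itself, lower. Tnf was at 14.3 and 36.7 CPM (1.36, 0.72 to 2.0). Tnfrsf4 (OX40) was at 40.0 and 36.0 CPM and Tnfrsf1b at 69.1 and 91.8 CPM. Traf1, an adaptor of CD137, was at 80.1 and 101 CPM (0.33, 0.02 to 0.65).

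Some of these differences were also found in proliferating Tregs, another dividing cell of the same libraries. Hist1h1b and Hist1h1e were higher in knockout proliferating Tregs too, at log2 ratios of 2.45 and 1.89. Gzmk was lower in both cell types (-1.70 in Tregs) and Rel was higher in both (0.65 in Tregs). Eomes had 14 UMIs in wild-type and 1 UMI in knockout proliferating Tregs (-3.77, -9.17 to -1.05), and Gzmk had 70 and 21. Free RNA of the CD8 T cells could also give Treg UMIs of Eomes and Gzmk, whose Treg UMIs served as background above. The part of free RNA in these Treg ratios was not tested, so they are no separate finding. Arsb was lower (-0.81, -1.34 to -0.29) and Samd9l higher (0.96, 0.44 to 1.5) in knockout proliferating Tregs as well. For Gzma (11 and 10 UMIs), Nrn1 (0.25, -0.36 to 0.87) and Pif1 (-0.48, -1.14 to 0.18) the interval in Tregs held 0. Itgae went the other way, at 162 CPM in wild-type and 89.9 CPM in knockout proliferating Tregs (-0.85, -1.13 to -0.58). Within the Tregs, cycling over gate-zero medians of the naïve list were -0.92 and -0.91, and those of the Tox effector list were -0.59 and -0.61.

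S phase and G2/M content were shared out alike. The S phase list took 54.9% of the S plus G2/M UMIs in wild-type proliferating cells (54.3 to 55.6) and 57.4% in the knockout (56.5 to 58.3), but as a mean over cells it was 56.6% and 55.6%, so the order depended on the weighting. S phase UMIs outnumbered those of G2/M in 113 of 182 wild-type cells (62.1%), against 56 of 97 in the knockout (57.7%). Within single cells the S phase list ranged up to 1.14% of UMIs in wild type and 1.35% in the knockout, with medians of 0.44% and 0.43%, and the G2/M list up to 1.31% and 1.32%, with medians of 0.28% and 0.27%. In 24 wild-type (13.2%) and 14 knockout cells (14.4%) both lists were under 0.2% of UMIs, a limit set after the values were seen. The median gate sum of those cells was 3 in both libraries, the smallest the gate admits.

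**Figure D5:**
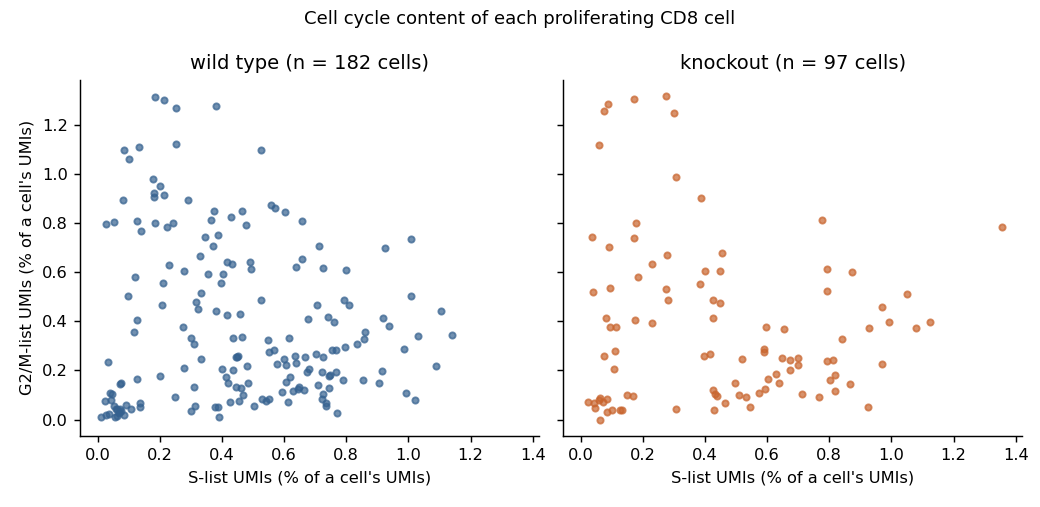
UMIs of the G2/M list against UMIs of the S phase list, each as a percent of a cell's UMIs, for every proliferating CD8 T cell of wild type (182) and knockout (97). Each point is 1 cell. In both libraries cells spread along both axes, from cells rich in S phase genes to cells rich in G2/M genes, with 24 and 14 cells near the origin.

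Of markers of cells outside the sort, those of myeloid cells stood out in wild type. Cd79a and Ms4a1 of B cells were at 0 in both libraries, and the B cell list, 5 of 7 genes measured, summed to 106 CPM in wild type and 81.2 CPM in the knockout, nearly all of it Cd74. The myeloid list summed to 220 and 154 CPM in proliferating cells, against 250.01 and 191 CPM in gate-zero cells, most of it Cst3 (160.5 and 146 CPM in proliferating cells). At least 2 of its 8 genes lay in 19.2% of the wild-type cells of the gate and in 8.25% of the knockout ones, against 5.35% and 2.46% of the shallower gate-zero cells. Of its 4 genes measured, 3 were at least 2-fold lower in knockout proliferating cells. Cd68 had 42 UMIs in 33 wild-type cells and 7 UMIs in 7 knockout cells. Fcer1g had 21 UMIs in 5 wild-type cells and none in the knockout. Tyrobp had 92 UMIs in wild type, 96.7% of them in 2 cells, and none in the knockout, while Lyz2 and Csf1r were at 0 in wild type. H2-Aa, among the 10 genes lowest in the knockout at -2.27, had 94.4% of its 90 wild-type UMIs in 2 cells. The NK list summed to 144 and 52.9 CPM, of which Eomes itself made up 139 and 41.6 CPM, and Klrb1c was at 0 in both. Summed levels of the gamma delta list (3 of 6 genes measured) were 0.38 and 0.71 CPM, of the acinar list 1.51 and 7.06, of the endocrine list 4.91 and 13.4, of the erythroid list 1.13 and 0, and of the endothelial and stromal list 17.7 and 33.2 CPM. Prss2, a pancreatic digestive protease among the 10 lowest, had 133 UMIs in 12 wild-type cells and 29 in 4 knockout cells. It was lower in knockout gate-zero cells too, at 204 UMIs in wild type and 45 in the knockout (log2 ratio -2.82). The acinar list, which does not count Prss2, went the other way in both classes, at 8.75 and 23.9 CPM in gate-zero cells. The Treg list, several genes of which effector CD8 T cells also use, summed to 540 and 714 CPM. Cells with at least 2 Cd8a and Cd8b1 UMIs that would meet the gate but held a Cd4 or Foxp3 UMI numbered 10 and 9 and were left out by the rule. The part of these other cells in the differences above was not tested.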

How the data were processed

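The data were single-cell 3′ RNA counts of sorted islet T cells, 1 library for each genotype (10x 3′ v2 chemistry). The deposited values are raw UMI counts per gene and cell, made by the authors with Cell Ranger 7.0.0 on mm10 per the submitters' processing notes, and every total, CPM level and share here was computed from those deposited counts. A list of 27998 genes was given in each matrix, and the 2804 and 2991 barcodes had already been called as cells. The filters on genes and mitochondrial UMIs left 2714 wild-type and 2915 knockout cells, of which 891 and 1200 were CD8 T cells by the rule. No doublet caller was run, so doublets remained, apart from cells that also held a Cd4 or Foxp3 UMI.

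The members and the gene lists were chosen with earlier results of these data known, so no pattern is independent support. A gene was called at an absolute log2 ratio of at least 1 between summed UMIs, among genes with at least 100 UMIs over all CD8 T cells. A count of 0 was set against a floor of 3 counts over the class. Levels and shares have exact Poisson and Clopper-Pearson intervals, ratios an exact conditional interval and differences of shares a Newcombe interval, all at 95%. PCR duplicates were collapsed by UMI in the counting. Named genes were all members of the lists, the 10 highest and 10 lowest knockout to wild-type ratios in the gate, and the 10 highest and 10 lowest wild-type ratios of proliferating to gate-zero cells outside the cell cycle lists. To compare shares of cells, cells were thinned at random to 3000 UMIs. The calculation of ratios was tried on simulated counts before use. Those counts were Poisson draws without clumping of UMIs in single cells, so they check the calculation and not the spread between cells. Promoters were RefSeq windows of GRCm38.p6, and gene positions are those of GRCm38. Of the listed marker genes Ighm, Igkc, Trdc, Trgc1 and Trgc2 were not analysed here. Some genes of the lists are not reported here by name, and the list counts and medians include them. Other settings were tried for each comparison, 25 listed at the outset with earlier results known and 6 chosen after seeing the counts. Python 3.11.15 was used with numpy 2.4.6, scipy 1.17.1 and matplotlib 3.10.9.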

Additional observations from a re-analysis of the deposited data

Results flagged for a closer look

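The 5000-gene limit removed cells that met the gate. Of CD8 T cells above it, 25 in wild type and 28 in the knockout had at least 3 gate UMIs, outside every comparison above except the share without that limit.

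The ratio of knockout to wild type lay on opposite sides of 0 in proliferating and gate-zero CD8 T cells, beyond counting error in both, for 18 of 245 list genes and for H2-Aa. With 1 library a genotype, these differences were not tested. The log2 ratio in proliferating minus that in gate-zero cells was 3.44 for Gzma, 2.02 for Il2ra (12 and 16 UMIs in proliferating cells), 1.72 for Xcl1, 1.41 for Bhlhe40, 1.40 for Il18rap, 1.31 for Ccl3 and 1.25 for Il18r1. It was 1.06 for Cxcr6, 1.02 for Cd44, 1.01 for Tnfrsf1b, 0.99 for Ccl4, 0.99 for Ctla4, 0.85 for Nr4a2, 0.84 for Itgb1, 0.47 for Cd8a, 0.35 for Cd3g and 0.26 for Srgn. For these genes the proliferating cells were higher and the gate-zero cells lower in the knockout. The same measure was -0.38 for Tubb5 and -2.74 for H2-Aa, which had 94.4% of its wild-type UMIs in 2 proliferating cells. Gzma had 64.2% of its knockout UMIs of the gate in 2 cells. The gate-zero classes also differed in their mix. Cells with no UMI of the 3 naïve genes were 252 of 542 in wild type and 207 of 894 in the knockout, and the part of this mix was not tested.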

How the results depend on the processing

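No paired analysis was possible because each genotype had 1 library, so no replicate could be left out either. Of the values that answer a comparison, 108 stayed within their counting interval or within 1.5 times under the alternatives and 36 moved, and of the values of named genes 802 stayed, 206 moved and 15 reversed. The proliferating share was 24.5 and 11% (wild type and knockout) at 2 or more gate UMIs, 16.9 and 6.58% at 5 or more, 12.7 and 5.32% after thinning (-7.35 points), 25.2 and 15.9% without cells that held any of 3 naïve genes, Lef1 and Ccr7 among them (-9.24 points), 17.5 and 6.55% at no more than 20000 UMIs, and 10.2% in the knockout without the gene limit. Against gate-zero cells as deep as the gated ones the naïve medians were -1.17 and -1.13, and Klf2 (0.69 and 0.083) and wild-type S1pr1 (0.19) reversed. The share of called genes that were higher was then 57.6% in place of 46.8% in wild type and 60.7% in place of 51.2% in the knockout. Against gate-zero cells with no UMI of those genes the naïve medians were -0.99 and -0.46 and the Tox effector medians -0.57 and -0.53. Reversed there were wild-type Igfbp4 (2.13) and S1pr1 (0.13), and in the knockout Klf2 (0.19), S1pr1 (0.70), Igfbp4 (2.51), Dapl1 (1.84), Klrc1 (-0.31), Klre1 (-0.43), Entpd1 (-0.31) and Pdcd1 (-0.30). The knockout Tox effector median was 0.95 at no more than 20000 UMIs. With at least 20 UMIs, 1081 genes were higher and 1457 lower in wild-type proliferating cells, 1376 lower in the knockout, and 655 higher and 466 lower in knockout against wild-type proliferating cells. In that last comparison 286 were lower with the 2 highest cells of each gene left out (48.5% of calls higher in place of 66.2%), 251 lower at no more than 20000 UMIs and 538 higher in cells with no naïve UMI, and H2-Aa was at 0.15 without the gene limit and 2.39 in cells with no naïve UMI. In gate-zero cells with no naïve UMI knockout against wild type gave a naïve median of 0.33, a Tox effector median of -0.35, 305 genes higher and 178 lower. The S phase share was 56.6 and 55.6% as a mean over cells and 53.7 and 56.1% at 5 or more gate UMIs. The cause of these changes was not tested. The 97 knockout cells limit what low genes can show.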

Other observations

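Of 7 measured interferon response genes, 2 were at least 2-fold lower in knockout proliferating cells and none higher, with a median of -0.43, against 1 lower and a median of -0.42 in gate-zero cells. The homing and adhesion list had 1 of 12 genes, Itgae, at least 2-fold higher and a median of -0.01.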
